A study of Homo sapiens with 2 samples.

Results

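Interferon-stimulated effector genes encode the proteins that carry out the antiviral state of a cell. Here 57 such genes were followed in the RNA-seq of human lung adenocarcinoma cells, and all 57 were found by their symbols among the 59125 rows of the count tables. They were chosen by symbol, with earlier results of these data known. They comprise the OAS, IFIT, IFITM, MX, PARP, TRIM, SAMD9 and GBP subclasses with 25 genes and 32 other effectors. The study depleted USP12, a deubiquitinase, to examine how tumour cells change their secretome and immune surroundings. The series held 2 libraries, 1 per group. Both came from H1944 (NCI-H1944), an established lung adenocarcinoma line, carrying a control hairpin in shCON and a hairpin against USP12 in shUSP12. No interferon or other agent is named for either library. Whether the cells were a pool or a clone, and how long the hairpins had been expressed, is not given in the sources used here. The header of the control count column reads SHRFP, while the methods of the study describe a control hairpin against GFP.

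Interferons of type I and type III bind their receptors and activate the kinases JAK1 and TYK2. The kinases lead to the assembly of the factor ISGF3, of which STAT2 and IRF9 are subunits. ISGF3 binds the interferon-stimulated response element (ISRE) in the promoters of effector genes, and some of these genes are also induced directly by interferon regulatory factors. In lung epithelium, the effectors act against respiratory viruses by degrading viral RNA, blocking its translation, hindering entry or tagging proteins with ISG15.

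To show the element next to the genes that carry it, RefSeq promoters (GRCh38.p14, from 250 bases before to 50 after each start) were searched on both strands for the ISRE core GAAANNGAAA, which reads TTTCNNTTTC on the other strand. A promoter entry was found for 46 of the 57 genes. The windows below hold 30 bases each, read 5′ to 3′ in the direction of the gene, and the capitals mark the core. They were chosen to set the genes with the core and the largest ratios between the libraries (IFITM1, IFI44L, IFI6, IFI27, RSAD2, MX1), the gene with the largest gain in level (LGALS3BP), well-known effectors of intermediate difference (IFIT1, ISG15, DDX60) and genes with little or opposite difference (IFITM3, BST2, GBP1) side by side.
IFITM1 (chr11:313990-314019, plus strand): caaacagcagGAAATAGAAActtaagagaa
IFI44L (chr1:78620365-78620394, plus strand): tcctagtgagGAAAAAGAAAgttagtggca
IFI6 (chr1:27672266-27672295, minus strand): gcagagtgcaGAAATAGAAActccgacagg
IFI27 (chr14:94110631-94110660, plus strand): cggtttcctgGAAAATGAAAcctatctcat
RSAD2 (chr2:6877622-6877651, plus strand): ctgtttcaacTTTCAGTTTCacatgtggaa
MX1 (chr21:41431844-41431873, plus strand): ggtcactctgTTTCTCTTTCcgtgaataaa
LGALS3BP (chr17:78979962-78979991, minus strand): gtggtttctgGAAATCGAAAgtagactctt
IFIT1 (chr10:89392510-89392539, plus strand): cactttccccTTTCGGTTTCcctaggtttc
ISG15 (chr1:1013380-1013409, plus strand): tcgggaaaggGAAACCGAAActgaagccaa
DDX60 (chr4:168318786-168318815, minus strand): gaggagaaagGAAACCGAAActcccgccgg
IFITM3 (chr11:320876-320905, minus strand): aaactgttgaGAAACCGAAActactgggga
BST2 (chr19:17405741-17405770, minus strand): tcctttctggGAAACTGAAActgaaaacct
GBP1 (chr1:89065316-89065345, minus strand): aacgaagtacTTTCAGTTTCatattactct

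ISG15, DDX60 and IFITM3 share the same 10 letters of the core, and their log2 ratios of shUSP12 over shCON were 1.71, 1.49 and 0.35. The ISRE core was found in 32 of the 46 genes with an entry (69.6%) and in 1195 of all 27305 genes with a promoter entry (4.38%). The κB consensus, searched in the same windows, was found in 4 of the 46 genes (8.70%) and in 7.09% of all genes. Of the effector genes that could be compared between the libraries, 31 held the ISRE core. They had a median log2 ratio of 1.08 and a range of -0.32 to 3.63, and 16 of them were at least 2-fold higher in shUSP12. The 14 without the core held 8 at least 2-fold higher, with a median of 1.11 and a range of 0.02 to 2.24. Of all rows compared, 6.48% were at least 2-fold higher, and the share among other genes with the core was not computed. Genes with and without the core covered much of the same range. The upper ends were set by IFITM1 and XAF1, with 5 and 16 counts in shCON, which entered the comparison only through shUSP12. Only exact matches in these windows were searched, so genes without a match are not shown to lack the element. Whether the core goes with the ratio was not tested. A match describes the letters in the window and not binding.

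Depth was alike, with 18249112 counts in shCON and 17475359 in shUSP12. Levels are given as counts per 1000000 (CPM) after TMM scaling, the log2 ratio of shUSP12 over shCON carries an added 0.1 CPM, and the 95% intervals are exact binomial intervals that cover counting error only. With 1 library per group no difference has a replicate check, no test was possible, and every ratio compares these 2 libraries. USP12 (ENSG00000152484, chr13:27066156-27171811, minus strand) had 711 counts (40.8 CPM) in shCON and 219 counts (11.97 CPM) in shUSP12, or 29.3% of the control level, a log2 ratio of -1.76 (-1.99 to -1.55). The libraries also stood apart in ways the hairpin label does not name. Of the lung epithelial markers, EPCAM had 115 and 1566 counts, KRT19 had 32 and 4452, NKX2-1 had 0 and 312, and SFTPB had 0 in both. CDH1 had 1026 and 2496 counts, a log2 ratio of 1.21, and KRT7 had 13626 and 22378, a ratio of 0.65. The abundant KRT8 (85596 and 62180 counts) and KRT18 (24132 and 18096) went the other way, with ratios of -0.53 and -0.49. Rows that were nearly silent in shCON (up to 3 counts) but reached 50 counts or more in shUSP12 numbered 119, and 1 row showed the reverse. None of the 57 effector genes was among the 119, but 119 of 59125 rows is so small a part that this says little about the effectors. Neither library can be left out of a comparison of 2, so a difference between the cell stocks and the effect of the hairpin cannot be told apart. In bulk RNA, a change in the number of expressing cells and a change in RNA per cell cannot be told apart either.

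The effector genes were mostly higher in shUSP12. Of the 57 genes, 56 averaged 1 CPM or more over both libraries and were compared, the exception being RTP4. At least 2-fold higher in shUSP12 were 28 of the 56 (50%), against 6.48% of the 14612 rows with the same minimum. None was at least 2-fold lower, against 3.01% of rows. The log2 ratio was above 0 for 53 of 56 (94.6%), against 48.9% of rows, and 13 of 56 (23.2%) were at least 4-fold higher, against 2.85%. Both the 28 and the 13 include IFITM1, MX2 and XAF1. These were under 1 CPM in shCON and passed the minimum only through shUSP12, so their place in these counts is partly set by the selection. The counting interval lay above 0 for 52 genes, against 27.1% of rows, and below 0 for 3, against 29.1%. The median log2 ratio of the effectors was 1.02, and that of all rows was -0.01. The direction was shared by nearly all the genes and the size was not, since log2 ratios ran from -0.48 for GBP2 to 3.63 for IFITM1.

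**Figure D1:**
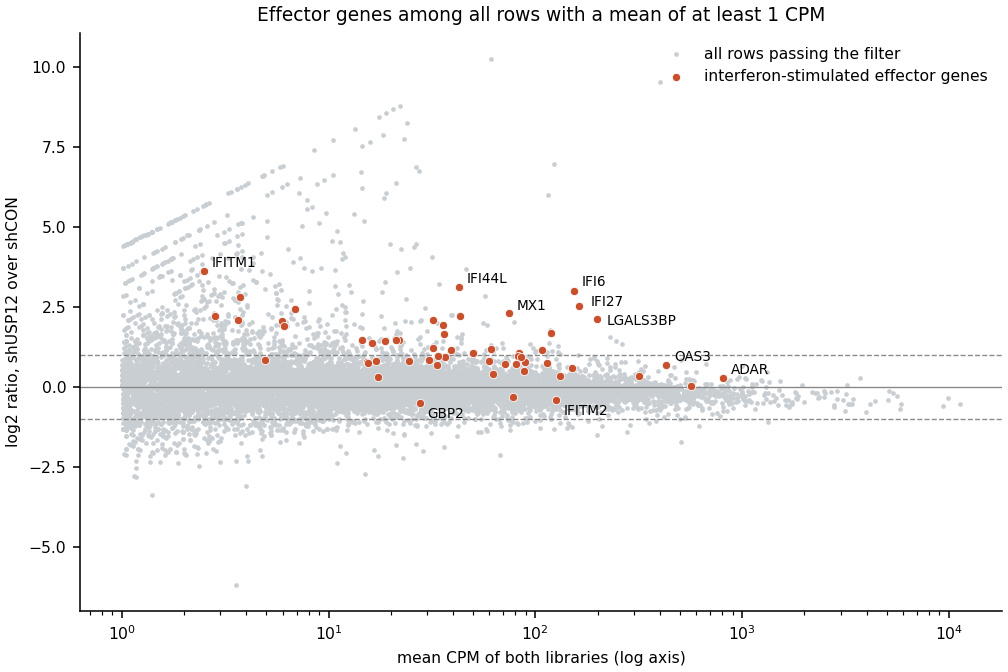
Log2 ratio of shUSP12 over shCON (vertical axis) against the mean level over both libraries in CPM (horizontal axis, log scale) for the 14612 rows compared, with the effector genes marked. The effectors lie mostly above 0, 28 of 56 at or above a log2 ratio of 1, and GBP1, GBP2 and IFITM2 lie below 0.

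Low rows scatter more, so the genes were also read by level. Ranked by mean CPM and cut into 4 groups of 3653 rows, the lowest group spanned 1.0 to 5.43 CPM. There 4 of 5 effectors were at least 2-fold higher, against 16.5% of rows. In the next 6 of 10 were, against 6.19%, then 10 of 16 against 2.30%, and in the highest group 8 of 25 against 0.903%. The median log2 ratios of the effectors in these groups were 2.24, 1.40, 1.20 and 0.75, and the median of all rows in the highest group was -0.08. The groups were cut on the mean of both libraries, and IFITM1, MX2 and XAF1 were under 1 CPM in shCON and passed only through shUSP12, so their large ratios are partly set by the selection and no trend with level is read. Of the 48 genes with at least 100 counts in shCON, 21 were at least 2-fold higher, against 1.55% of the 10713 rows with that many counts.

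The OAS proteins sense double-stranded RNA and make the second messenger that activates RNase L, and OASL is their relative without that activity. OAS1 had 940 counts in shCON and 2059 in shUSP12 (53.9 and 112.5 CPM), and OAS2 had 263 and 1297 (15.1 and 70.9 CPM). OAS3, the most abundant of the family, had 5736 and 9716 counts (329 and 531 CPM), and OASL had 421 and 991 (24.2 and 54.2 CPM). All 4 were higher in shUSP12. OAS2 differed most, with a log2 ratio of 2.22 (95% interval 2.04 to 2.43), ahead of OASL at 1.16 (1.0 to 1.33), OAS1 at 1.06 (0.95 to 1.17) and OAS3 at 0.69 (0.64 to 0.74). OAS1, OAS3 and OAS2 lie next to each other on chr12:112905856-113011723, so neighbours in 1 cluster differed between 1.61-fold and 4.70-fold.

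The IFIT proteins bind foreign RNA ends and block their translation. IFIT1 had 258 counts in shCON and 1036 in shUSP12 (14.8 and 56.6 CPM), a log2 ratio of 1.93 (1.74 to 2.14). IFIT2 had 176 and 502 (10.1 and 27.4 CPM), IFIT3 had 201 and 593 (11.5 and 32.4 CPM), and IFIT5 had 133 and 394 (7.63 and 21.5 CPM). Their log2 ratios of 1.43, 1.48 and 1.48 could not be told apart within counting error. The interval of IFIT1 lay above those of IFIT2 and IFIT3 but overlapped that of IFIT5, 1.21 to 1.79. All 4 lie within chr10:89283694-89421605 and all were at least 2-fold higher. IFIT2 and IFIT3 share 65 and 94 exon bases with LIPA on the opposite strand, which had 1198 and 1130 counts. The strand setting of the counting is not given in the sources used here.

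The IFITM proteins sit in membranes and hinder virus entry, and the members of this family did not move together. IFITM1 had 5 counts in shCON (0.287 CPM, 95% interval 0.09 to 0.67) and 86 in shUSP12 (4.70 CPM, 3.76 to 5.80), a ratio of 3.63 (2.76 to 5.69). This was the highest value of all effectors, but its interval covers that of IFI44L, and with a pseudocount of 1 CPM it was 2.15, below IFI44L, IFI6, IFI27, MX1 and OAS2. IFITM3 had 4856 and 6494 counts (279 and 355 CPM), a log2 ratio of 0.35 (0.30 to 0.40). IFITM2 had 2475 and 1986 counts (142 and 108.5 CPM) and was lower, at -0.39 (-0.47 to -0.30). The sum over the family was 1.11-fold higher in shUSP12, since the gene that differed most was the rarest. The genes lie within chr11:303655-329475 and are near-identical in part. Of the 50-base stretches of its transcript, 55.1% for IFITM1, 20.8% for IFITM3 and 12.0% for IFITM2 also occur in another gene. For IFITM3 the main such gene was IFITM1. For IFITM1 and IFITM2 it was a gene that has no row here, so their shares do not measure identity within the family. The share of reads given to each is uncertain.

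The MX proteins are dynamin-like GTPases that trap viral particles. MX1 had 435 counts in shCON and 2261 in shUSP12 (24.96 and 123.6 CPM), a log2 ratio of 2.30 (2.16 to 2.46). MX2 had 15 and 121 counts (0.861 and 6.61 CPM), a log2 ratio of 2.81 (2.16 to 3.82). Both lie within chr21:41361999-41470071, and their intervals overlap, so the higher ratio of MX2 was not separable from that of MX1 at its depth.

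The PARP members belong to a family of enzymes that transfer ADP-ribose to proteins or RNA, and all 4 were moderately higher. PARP9 had 752 and 1394 counts (43.1 and 76.2 CPM), PARP10 had 1056 and 1834 (60.6 and 100.2 CPM), PARP12 had 938 and 1302 (53.8 and 71.2 CPM) and PARP14 had 961 and 2001 (55.1 and 109.4 CPM). The log2 ratios were 0.82, 0.73, 0.40 and 0.99, so none reached 2-fold and the interval of PARP14, 0.88 to 1.10, included it. DTX3L, the ubiquitin ligase that pairs with PARP9 and shares 139 exon bases with it on the opposite strand, had 943 and 1622 counts, a log2 ratio of 0.71 (0.60 to 0.83). PARP10 shares 324 exon bases on the opposite strand with GRINA, which had 1877 and 3940 counts, a log2 ratio of 0.999. How far GRINA reads enter the PARP10 counts was not tested.

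The TRIM members are proteins of innate immunity, among them TRIM25, a ubiquitin ligase that acts on RIG-I, and TRIM21, a cytosolic antibody receptor. TRIM14 had 1144 counts in shCON and 2055 in shUSP12 (65.6 and 112.3 CPM) and TRIM25 had 2066 and 3310 (118.5 and 180.9 CPM). TRIM22 had 214 and 395 (12.3 and 21.6 CPM) and TRIM21 had 266 and 352 (15.3 and 19.2 CPM). All 4 were higher by less than 2-fold, from 0.33 (0.10 to 0.57) for TRIM21 to 0.81 (0.57 to 1.06) for TRIM22 on the log2 scale. Of the SAMD9 pair, restriction factors for poxviruses on chr7:93099513-93148385, SAMD9 had 435 and 882 counts (24.96 and 48.2 CPM) and SAMD9L had 156 and 428 (8.95 and 23.4 CPM). Their log2 ratios were 0.95 (0.78 to 1.12) and 1.38 (1.12 to 1.66), with intervals that met at 1.12.

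The GBP members are GTPases that attack vacuoles holding pathogens and are known mainly as targets of interferon gamma. GBP1 and GBP2, the members among the 57 genes, were lower in shUSP12. This does not hold for the whole family, since GBP3 and GBP4, outside the 57 genes, were higher, with log2 ratios of 2.11 and 1.46. GBP1 had 1506 counts in shCON and 1265 in shUSP12 (86.4 and 69.1 CPM), a log2 ratio of -0.32 (-0.43 to -0.21), and GBP2 had 560 and 420 counts (32.1 and 22.95 CPM), a ratio of -0.48 (-0.67 to -0.30). Both lie within chr1:89051882-89150456. With IFITM2 they were the 3 genes of the 56 below 0, and they stayed below 0 with total counts alone, DESeq2 size factors and upper quartile factors as scalings.

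**Figure D2:**
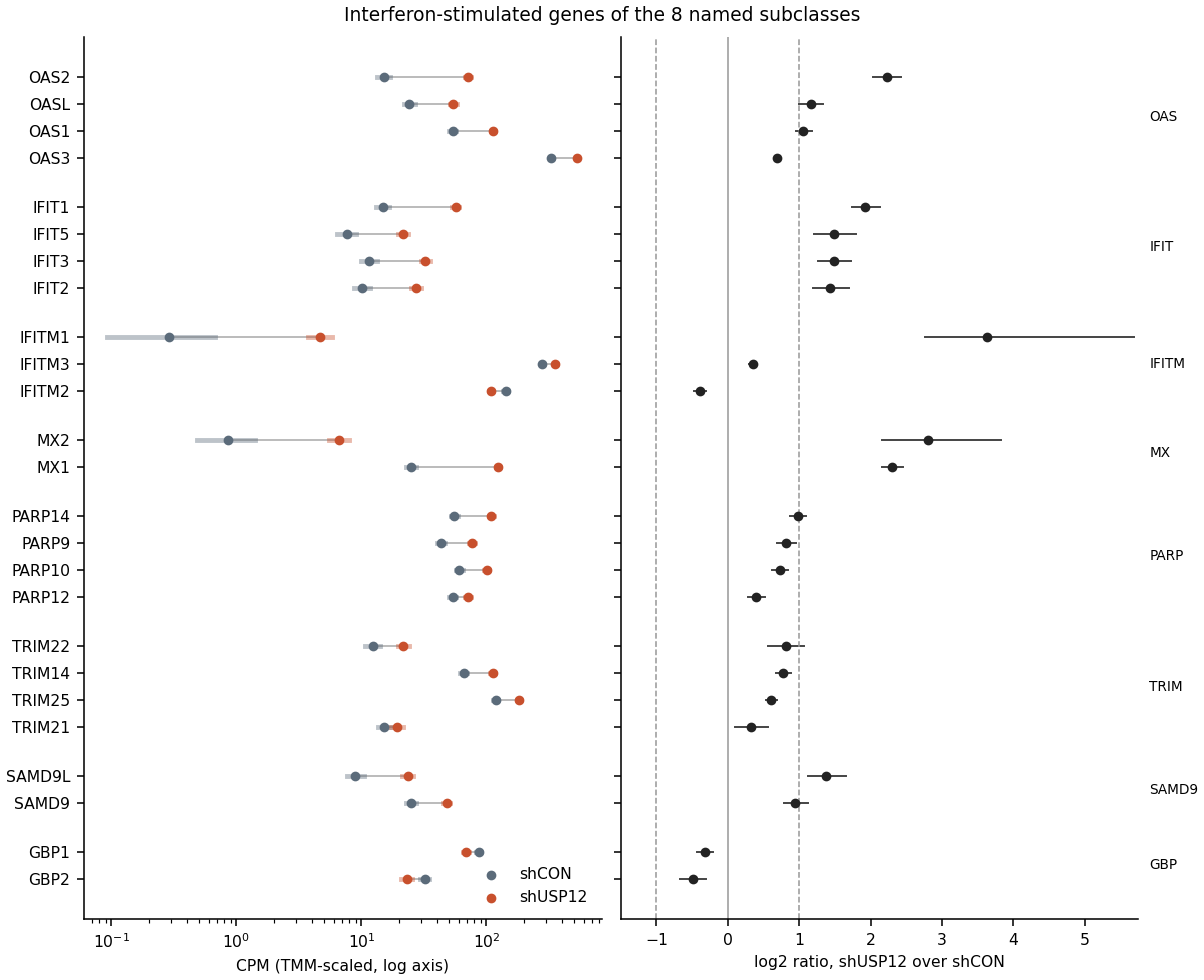
Left, level of each gene of the 8 subclasses in CPM (log axis) in shCON and shUSP12, 1 library per group; right, log2 ratio of shUSP12 over shCON, both with 95% counting intervals and dashed lines at 2-fold. The MX and IFIT genes are higher in shUSP12, the IFITM genes go in different directions, and GBP1 and GBP2 are lower.

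ISG15 is a ubiquitin-like protein that is joined to other proteins by UBA7, UBE2L6 and HERC5 and removed by USP18. ISG15 (ENSG00000187608, chr1:1001138-1014540, plus strand) had 972 counts in shCON and 3335 in shUSP12 (55.8 and 182.3 CPM), a log2 ratio of 1.71 (1.61 to 1.81). The conjugating enzyme UBE2L6 had 304 and 1009 counts, a ratio of 1.66 (1.47 to 1.85), and the ligase HERC5 had 39 and 177, a ratio of 2.06 (1.61 to 2.65). The modifier, its conjugating enzyme and its ligase thus had overlapping ranges of difference. The activating enzyme UBA7 had 61 and 116 counts, a ratio of 0.84 (0.40 to 1.33), and HERC6, the relative of HERC5, had 334 and 824, a ratio of 1.23. USP18, the protease that removes ISG15 and dampens receptor signalling, had 307 and 575 counts, a ratio of 0.83 (0.63 to 1.04), and 52.9% of its 50-base stretches occur in another gene.

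Large differences were also found in effectors outside these subclasses. IFI44L (chr1:78619902-78646145, plus strand), whose role is less settled, had 151 counts in shCON and 1410 in shUSP12 (8.66 and 77.1 CPM), a ratio of 3.14 (2.91 to 3.40), and its neighbour IFI44 had 209 and 952, a ratio of 2.11 (1.90 to 2.34). IFI6 (chr1:27666064-27672212, minus strand), a small membrane protein of the endoplasmic reticulum and mitochondria, had 600 and 5018 counts (34.4 and 274.3 CPM), a ratio of 2.99 (2.87 to 3.12). IFI27 (chr14:94104836-94116695, plus strand), of the same small protein family, had 837 and 5103 counts (48.0 and 278.9 CPM), a ratio of 2.54 (2.43 to 2.65). These ratios rest on 151 to 837 counts in the control, so counting error is small beside them. LGALS3BP (chr17:78971238-78979947, minus strand), a secreted galectin-binding glycoprotein, had 1282 and 5911 counts (73.6 and 323 CPM), a ratio of 2.13 (2.05 to 2.22). RSAD2, or viperin, which makes a chain-terminating nucleotide, had 36 and 213 counts, a ratio of 2.44 (1.98 to 3.05), and CMPK2, the nucleotide kinase that lies head to head with it within chr2:6840570-6898239, had 23 and 110, a ratio of 2.11 (1.53 to 2.90). The pair shares 351 exon bases on opposite strands. In all, 12 of the 57 genes share exon bases on the opposite strand with a row that holds at least 10% of their counts, among them PARP10 with GRINA, TRIM14 with NANS and ZNFX1 with DDX27, and their reads cannot be assigned with certainty.

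A further set of proteins that bind, edit or degrade RNA had a median log2 ratio of 0.95, beside 1.02 for all effectors. ADAR, the editing enzyme that marks self RNA, had 12674 counts in shCON and 16154 in shUSP12 (727 and 883 CPM), a ratio of 0.28 (0.25 to 0.31). EIF2AK2, the kinase PKR that stops translation, had 1011 and 2054, a ratio of 0.95 (0.84 to 1.06). Both are known to be present in resting cells. The helicase-like DDX60 had 193 and 571 counts, a ratio of 1.49 (1.26 to 1.74), its neighbour DDX60L was at 0.97, HELZ2 had 1162 and 2733 counts, a ratio of 1.16, the exonuclease ISG20 was at 0.80 and ZNFX1 at 0.75. Of these 7 genes 2 were at least 2-fold higher and all had intervals above 0.

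Among 3 nuclear proteins, the DNA sensor IFI16 had 651 and 1555 counts, a ratio of 1.18 (1.05 to 1.32), and the nuclear body proteins SP100 and SP110 were at 0.70 and 0.74. The remaining effectors spread widely. XAF1, which promotes apoptosis, had 16 counts in shCON and 86 in shUSP12 (0.918 and 4.70 CPM), a ratio of 2.24 (1.58 to 3.23), and EPSTI1 had 44 and 177, a ratio of 1.90 (1.45 to 2.45). PLSCR1, a phospholipid scramblase, was at 1.08, IFI35 at 0.85 and the aminopeptidase LAP3 at 0.51. BST2, or tetherin, which holds budding virions on the cell surface, had 2036 and 2704 counts (117 and 148 CPM), a ratio of 0.34 (0.26 to 0.42). RNF213, a giant ubiquitin ligase, had 9776 and 10426 counts (561 and 570 CPM), a ratio of 0.02 (-0.02 to 0.06), the interval that included 0. RTP4, a chaperone of receptors, had 3 and 21 counts, a ratio of levels of 6.67 with a counting interval of 1.99 to 34.9, too few for a firmer statement.

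**Figure D3:**
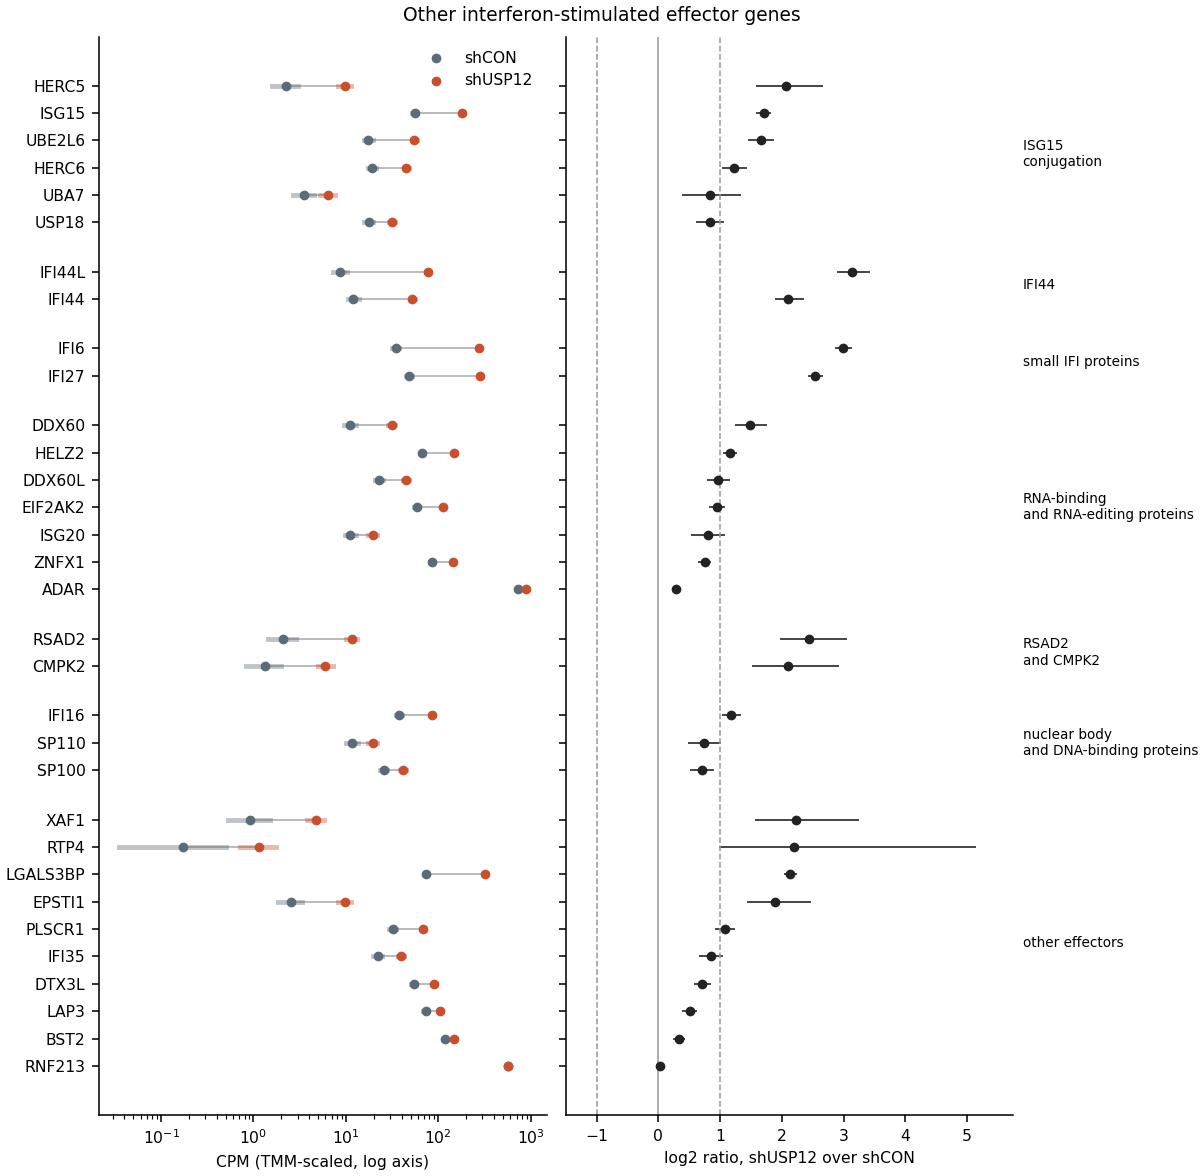
Left, level of the effector genes outside the 8 subclasses in CPM (log axis) in shCON and shUSP12, 1 library per group; right, log2 ratio of shUSP12 over shCON, both with 95% counting intervals and dashed lines at 2-fold. IFI44L, IFI6, IFI27 and LGALS3BP stand far apart between the libraries, and RNF213 lies at the same level in both.

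Levels of different genes were compared per transcript length, as TPM, the length-scaled share of each library. In shCON the highest were IFITM3 (971 TPM), IFITM2 (301), BST2 (249), ADAR (234) and ISG15 (186). In shUSP12 they were IFITM3 (1367 TPM), IFI27 (905), IFI6 (795), ISG15 (673) and BST2 (347). IFI27 and IFI6 joined the top in shUSP12 from 141 and 90.3 TPM, and LGALS3BP followed BST2 closely at 345 TPM. The order depends on the length used. With the union of all exons in place of the canonical transcript the same 5 genes led in shCON, with BST2 first, and in shUSP12 IFI6 was first and LGALS3BP took the place of IFI27. The lowest in shCON were RTP4, MX2 and XAF1, at 0.244, 0.538 and 0.572 TPM there and at 1.80, 4.57 and 3.24 TPM in shUSP12.

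**Figure D4:**
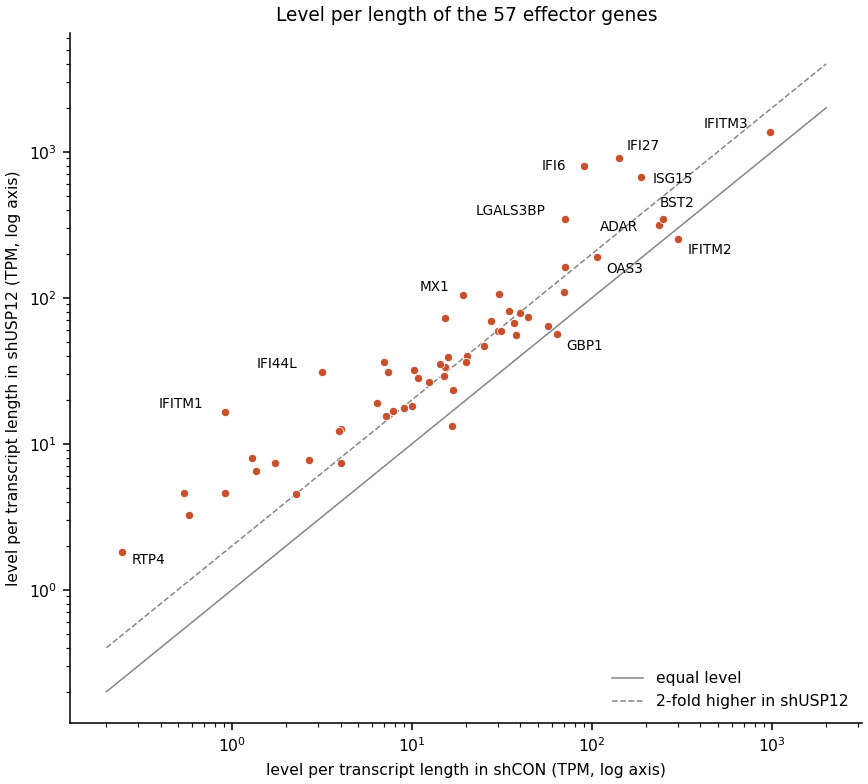
Level per transcript length (TPM) of the 57 genes in shCON (horizontal) and shUSP12 (vertical), both on log axes, with lines for an equal level and for a 2-fold higher level. With these canonical transcript lengths IFITM3 is the highest in both libraries, and IFI6 and IFI27 are at 90.3 and 141 TPM in shCON and at 795 and 905 TPM in shUSP12.

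Summed over the 57 genes, the level was 3704 CPM in shCON and 6274 CPM in shUSP12, 1.69-fold higher. LGALS3BP, IFI6 and IFI27 held 9.71%, 9.33% and 8.98% of the net gain of 2570 CPM, and OAS3, ADAR, ISG15 and MX1 brought the share to 50.7%. Without LGALS3BP, IFI6 and IFI27 the sum was 1.52-fold higher, and 25 of 53 genes were at least 2-fold higher (6.46% of rows). The gain in the sum thus lay in large part in a few genes, while ratios of at least 2-fold were found in many.

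Many of the genes sit in clusters, and 29 of the 57 fall in 12 groups with gaps under 500 kb. Their nearest protein-coding neighbours outside the 57 genes give a local comparison, although relatives of the effectors, such as GBP3, SP140 and IFI27L2, are among them. Of 83 such neighbours with a row, 46 averaged 1 CPM or more, 3 were at least 2-fold higher, a share near the 6.48% of all rows, none was at least 2-fold lower (3.01% of rows), and the median log2 ratio was 0.02. The 3 were SP140, a relative of SP100 and SP110 that shares 170 exon bases with SP110 on the opposite strand, GBP3 and CORO2A. SP140 had 2 counts in shCON and 52 in shUSP12 and so passed the minimum only through shUSP12, with a log2 interval of 2.71 to 7.71. GBP3 had 78 and 360 counts, a ratio of 2.11 (1.78 to 2.51), in contrast to GBP1 and GBP2 beside it, and CORO2A, an actin regulator next to TRIM14, had 94 and 257, a ratio of 1.36 (1.03 to 1.74).

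The genes upstream of the effectors were read from lists of the pathway. Of 57 pathway genes 32 averaged 1 CPM or more, 6 of them were at least 2-fold higher (6.48% of all rows), none was at least 2-fold lower (3.01% of rows), and the median log2 ratio was 0.17. AIM2 and SOCS1 among the 6 were under 1 CPM in shCON and passed only through shUSP12. No interferon ligand reached the minimum. Of 22 ligand genes 16 had 0 counts in both libraries, IFNB1 and IFNG among them, and the highest were IFNE with 1 and 9 counts and IFNL1 with 0 and 6. Each of the 6 ligands with any count had more in shUSP12. However, IFNA1, IFNW1, IFNL1 and IFNL2 had 0 counts in shCON and so could not have been lower in shUSP12. IFNA1 also shares 63.4% of its exon bases with MIR31HG on the opposite strand, which had 26 and 8 counts. The ligands together had 2 counts in shCON and 28 in shUSP12 (0.115 and 1.53 CPM), a ratio of 13.3 with a counting interval of 3.36 to 116.

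Of 4 receptor chains with enough counts 3 lay near 0. IFNAR1, a chain of the type I receptor, had 920 and 897 counts, a ratio of -0.11 (-0.24 to 0.03), IFNGR1 was at -0.06 and IFNGR2 at -0.20, while IFNLR1, the type III receptor chain, had 79 and 130 counts, a ratio of 0.64 (0.23 to 1.07). IFNAR2 and IL10RB, which share exons with a readthrough row, had 1 and 4 and 6 and 16 counts and are uncertain. STAT2, a subunit of ISGF3, had 613 and 1177, a ratio of 0.87 (0.73 to 1.01). IRF9, its partner in ISGF3, had 25 and 31 counts, a ratio of 0.23 (-0.57 to 1.06), too few to tell a difference, and it shares exons with another row. The kinases JAK1 and TYK2 were at -0.05 and -0.15, and JAK2 at 0.63.

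Among the regulatory factors, IRF7, which drives type I interferon genes, had 311 counts in shCON and 878 in shUSP12, a ratio of 1.42 (1.24 to 1.62), and IRF1 had 273 and 581, a ratio of 1.01 (0.81 to 1.23). IRF2, IRF3 and IRF5 were at 0.18, -0.04 and -0.17. Of the sensors of foreign nucleic acid, AIM2 had 4 and 36 counts, a ratio of 2.65 (1.62 to 5.05), DHX58 had 56 and 160, a ratio of 1.42 (1.0 to 1.91), and IFIH1, or MDA5, had 251 and 555, a ratio of 1.07 (0.86 to 1.30). RIGI was at 0.52, TICAM1 at 0.43, STING1 at 0.34, TBK1 at 0.06, IKBKE at 0.04, MAVS at -0.14, CGAS at -0.31 and TLR3 at -0.33. DHX58, IFIH1 and RIGI, the RIG-I-like receptors, lay above the adaptors and kinases that act below them. Of the inhibitors, SOCS1 had 8 and 49 counts, a ratio of 2.31 (1.45 to 3.83), and PTPN1, PIAS1, PTPN2, SOCS3, PTPN11 and PTPN6 lay between -0.34 and 0.29.

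**Figure D5:**
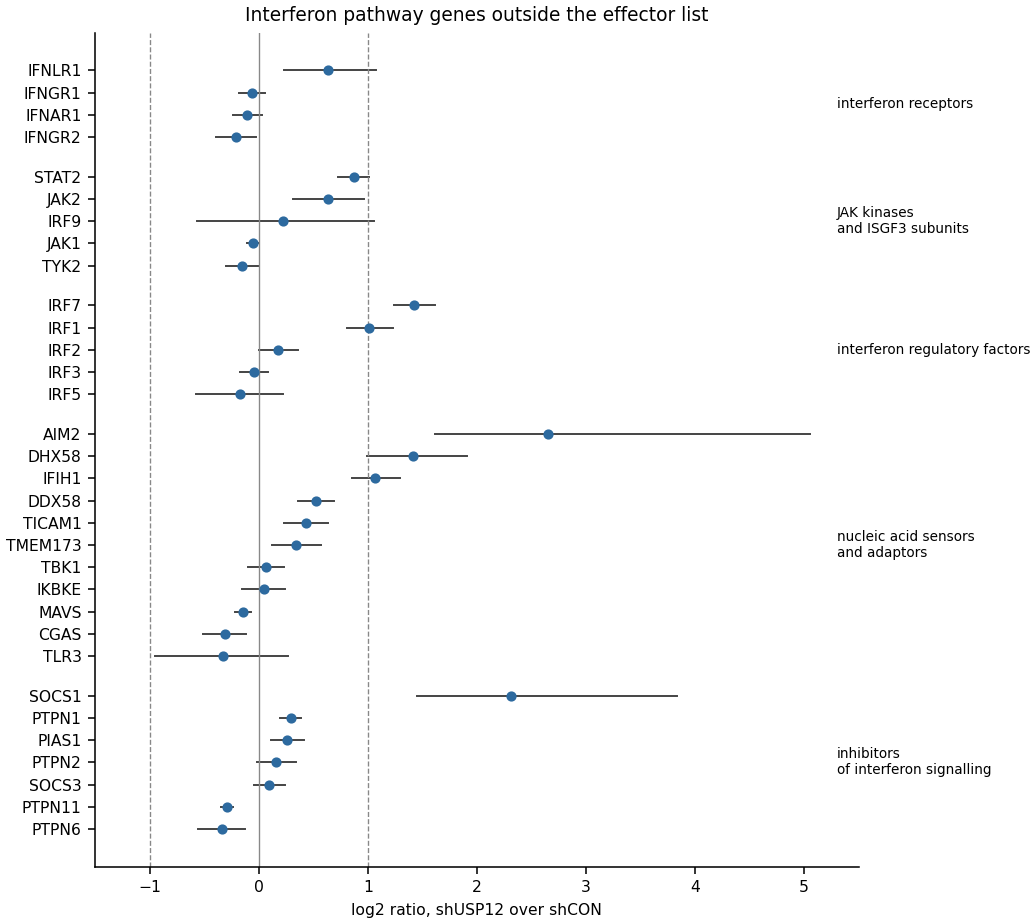
Log2 ratio of shUSP12 over shCON for the interferon pathway genes with a mean of at least 1 CPM, grouped by role, with 95% counting intervals and dashed lines at 2-fold; RIGI and STING1 carry their older names DDX58 and TMEM173. IRF7, IRF1, AIM2, DHX58, IFIH1 and SOCS1 are at least 2-fold higher, and 3 of the 4 receptors lie near 0.

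Markers of other cells were read because leukocytes express many of these effectors. The 9 leukocyte markers summed to 8.20 CPM in shCON and 11.0 CPM in shUSP12, with CD3E and MS4A1 at 0 counts in both and PTPRC at 0 and 2. LAPTM5 had 39 and 101 counts, CD14 had 21 and 31 and ITGAM had 80 and 58. The 4 endothelial markers summed to 0.803 and 3.01 CPM, with KDR at 0 and 32 counts, VWF at 1 and 13, PECAM1 at 10 and 7 and CDH5 at 3 in both. The 6 fibroblast markers summed to 186 and 121 CPM and went opposite ways. COL1A1 had 1911 and 462 counts and COL3A1 had 69 and 43, while DCN had 481 and 597, LUM had 788 and 1103, COL1A2 had 0 and 3 and PDGFRA had 0 and 7. The 57 effectors gained 2570 CPM between the same libraries, a sum that cannot be set against those of a few marker genes. The part of the epithelial, leukocyte, endothelial and fibroblast markers in the higher effector levels was not tested.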

How the data were processed

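RNA-seq libraries of H1944 cells with shCON or shUSP12 (1 library per group, grouped by the treatment label) were used as deposited. The authors deposited whole-number counts per gene without normalisation. The methods of the study name Seqtk for trimming, Hisat2 for alignment to GRCh38 and Stringtie for counting uniquely mapped fragments, whereas the submitters' processing notes name Trimmomatic, HISAT2 2.0.4 and HTSeq 0.6.0. The kit was stranded, and the strand setting of the counting and the annotation release are not given in the sources used here. Each table held 59125 rows with a count, and 91 lines without a count were left out. No per-sample column was left unused.

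CPM were computed with TMM factors (0.955 for shCON, 1.05 for shUSP12) from edgeR 4.0.16 in R 4.3.3. Log2 ratios carry a pseudocount of 0.1 CPM, which understates the change of low genes, and rows averaging 1 CPM or more were compared at a threshold of 2-fold. The 95% intervals are exact Clopper-Pearson intervals without a pseudocount. As the reads carried no molecular identifiers, they do not count independent molecules, and the intervals and the floor of 3 counts cover counting error only. TPM used canonical transcript lengths, or as an alternative the union of all exons, of GENCODE release 44, which held 99.1% of the Ensembl rows and gave coordinates counted from 1. With 1 library per group no p-value was computed.

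The 57 genes, the pathway lists and the marker lists were chosen with earlier results of these data known. Genes given in full were USP12, the 8 largest rises and every fall, the 5 highest per length in each library, those with at most 3 counts in shCON and all of the 8 subclasses. Pathway genes above that minimum and the 3 largest rises among neighbours were also named. Other genes were named after their values were seen. An item of the pathway lists is not reported here. Computations used Python 3.11.15, NumPy 2.4.6, pandas 2.3.3 and SciPy 1.17.1, figures used Matplotlib 3.10.9, and the ratio and interval steps were tested on simulated counts. Other pseudocounts, filters, thresholds and scalings, DESeq2 1.42.0 size factors among them, were tried as alternatives.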

Additional observations from a re-analysis of the deposited data

How the results depend on the processing

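No paired analysis was possible because there was a single library on each side, and for the same reason none could be left out. At least 2-fold higher were 28 effector genes. At a threshold of 1.5-fold the count was 46 (11.9% of all rows), and at 4-fold it was 13 (2.85%), as the thresholds themselves imply. Under the other pseudocounts, filters and scalings it ran from 24 of 51 genes with a mean of at least 5 CPM (3.24% of all rows so filtered) to 32 with total counts alone (7.77%), where the median of all rows moved by 0.13, and no gene was at least 2-fold lower. Alternatives chosen after seeing the data gave 21 of 48 genes with at least 100 counts in shCON (1.55% of rows), 28 among protein-coding rows (6.19%), and 25 of 53 without IFI6, IFI27 and LGALS3BP (6.46%). Of 285 values of single genes under 5 alternatives each, 256 stayed inside their counting interval and none that was called changed sign. RNF213 was at -0.02 with upper quartile factors. IFITM1 was at 2.15 and RTP4 at 0.87 with a pseudocount of 1 CPM. Depth limits the genes with few counts, since 8 had fewer than 50 counts in shCON.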

Other observations

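The other guanylate-binding proteins were read after the values of GBP1 and GBP2 had been seen. GBP4, in the same cluster on chromosome 1, had 36 counts in shCON and 107 in shUSP12, a log2 ratio of 1.46 (95% counting interval 0.94 to 2.09). GBP5 had 8 and 10 counts, GBP6 had 1 and 18, and GBP7 had 0 in both. GBP3 and GBP4 were thus higher in shUSP12 while GBP1 and GBP2 were lower.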
